A study of Rattus norvegicus with 12 samples.

Results

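The Toll-like receptors and the NF-kB pathway were described here through 10 genes, all chosen by gene symbol: the receptors Tlr2, Tlr3, Tlr4 and Tlr7, the co-receptors Cd14 and Ly96, the adaptor Myd88, the NF-kB subunits Nfkb1 and Rela, and the inhibitor Nfkbia. The array annotation used here assigned 9 of its 31099 probe sets to them, 1 for each gene except Tlr3, which had none and is not analysed here. RNA from the cortex of 6 aged and 6 young male Fischer 344 rats was hybridized to Affymetrix RAE230 2.0 arrays, 1 array per rat. The labels give the aged rats as 21 to 23 months old and the young rats as 3 to 5 months old. All rats carried implanted EEG and EMG emitters and had been tested in a water maze. The tissue is parietal cortex in the sample titles but frontal cortex in the tissue field.

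Toll-like receptors recognize molecules of microbes and of damaged cells. Tlr2 binds lipoproteins and Tlr4 binds bacterial lipopolysaccharide, which Cd14 hands over and Ly96, also called MD-2, holds in place, while Tlr7 reads RNA inside endosomes. Myd88 passes the signal from these receptors to kinases that mark the inhibitor encoded by Nfkbia for destruction. The dimer of the Nfkb1 and Rela products then enters the nucleus and switches on cytokine genes and Nfkbia itself. In the brain, microglia carry most of these receptors.

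Each array reports 1 linear signal per probe set, scaled so that the mean, after dropping the top and bottom 2%, was 500.1 throughout. Median signals ranged from 168 to 194 in aged and from 162 to 172 in young rats. The array of aged rat 6 had the 194, and the next highest, that of aged rat 3, had 177. The sample codes form a lower series of 7 arrays (4 aged and 3 young rats) and a higher series of 5 arrays (2 aged and 3 young rats). Neuronal markers were well measured, with a summed signal over 8 genes of 48468 to 54711 in aged and 48852 to 61189 in young rats. Microglia markers (13 genes) summed to 6180 to 11710 in aged rats, where rat 6 was highest, and to 5418 to 7040 in young rats. By summed signal aged rat 6 was also the highest of all rats for endothelial, leukocyte and astrocyte markers. It was not the highest for neuronal, oligodendrocyte, border macrophage, red cell or choroid plexus markers. Whether its whole array or its tissue differed was not tested. The number of arrays limits the precision.

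None of the 9 genes differed between aged and young cortex at an adjusted p under 0.05 (limma, Benjamini-Hochberg adjustment over the 13253 genes tested), against 0.0528% of all genes. None reached an unadjusted p up to 0.05 either, against 9.11% of all genes, and the exact permutation test over the 924 splits of the 12 rats gave p-values of 0.0693 to 0.898. All 9 exceeded the detection cutoff, a signal of 19.7 or 4.3 in log2, on all 12 arrays, so no gene entered the test through 1 age group alone. The study chose 4.3 on its gcRMA signals, and 83.3% to 87.1% of probe sets exceeded it on each array here. Whether it marks detection on the scale of the deposited signals was not tested. The log2 fold change, aged minus young, was above 0 for 8 of the 9 genes and below 0 for Ly96, whereas 56.9% of all genes tested were above 0. With quantile normalization 6 were above 0 and 3 below, against 50.8% of all genes above 0, and with median centring likewise 6 and 3, against 37.8%. The median over the 9 genes was 0.16, and that over all genes was 0.024. Aged and young rats overlapped for each of the 9 genes, whereas 0.536% of all genes had every aged rat above every young rat and 0.241% every aged rat below.

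**Figure D1:**
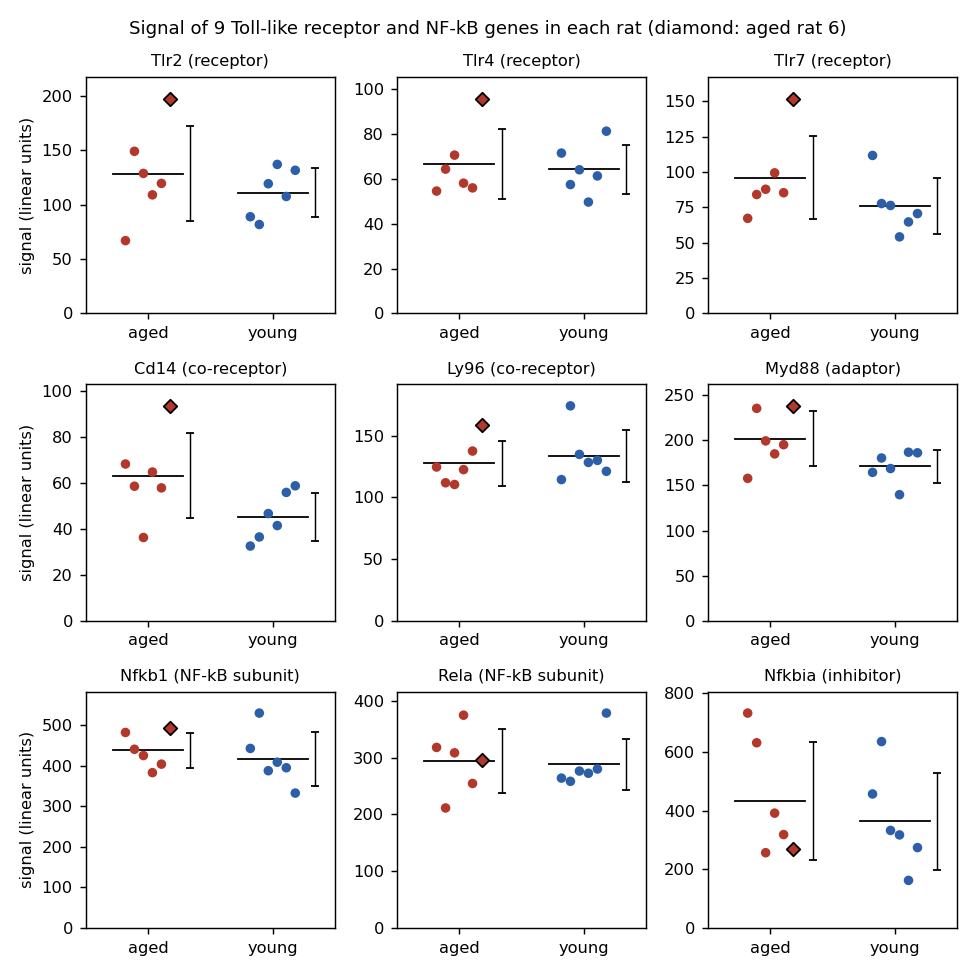
Deposited signal (y axis, linear units, starting at 0) of the 9 genes in each of 6 aged (left) and 6 young rats (right), with 1 point per rat, a line at each group mean and a bar of 1 SD. The aged and young rats overlap in every panel, and aged rat 6, drawn as a diamond, is the highest of the 12 rats for Tlr2, Tlr4, Tlr7, Cd14 and Myd88.

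Among the receptors, Tlr7 had the largest difference in means. Its signal ranged from 67.3 to 152 (median 86.7) in aged rats and from 54.2 to 112 (median 73.6) in young rats. The top of each range was 1 animal. Aged rat 6 had 152 where no other aged rat exceeded 99.5, and young rat 1 had 112 where no other young rat exceeded 77.8. The mean was 96.1 ± 29.3 in aged and 75.9 ± 19.6 in young rats (SD, n = 6 each). Aged minus young came to 0.33 in log2 (standard error 0.20, 95% interval -0.11 to 0.77, adjusted p = 0.662 from limma). It was 0.19 without aged rat 6 and 0.45 without young rat 1. Within the higher code series it was 0.86 and within the lower series -0.057, and the test of this difference gave an unadjusted p of 0.0257 and an adjusted p of 0.999 (limma interaction term). In bulk tissue, a change in the number of cells that carry a receptor and a change in receptor RNA per cell cannot be told apart.

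Tlr2, the lipoprotein receptor, was the most scattered of the 3 receptors on the log2 scale in aged rats. Its signal ranged from 67.0 to 198 (median 124) in aged rats and from 81.8 to 137 (median 114) in young rats. The aged rats thus held both the lowest and the highest of the 12 values. Its log2 fold change was 0.16 (standard error 0.23, interval -0.34 to 0.67, adjusted p = 0.881 from limma), and it was 0.024 without aged rat 6 and 0.34 without aged rat 1. Without aged rats 2 and 6 together it was -0.083.

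Tlr4, the lipopolysaccharide receptor, was close to level between the ages. It ranged from 54.6 to 95.8 (median 61.2) in aged rats and from 49.7 to 81.3 (median 62.7) in young rats. The log2 fold change of 0.041 (standard error 0.15, interval -0.29 to 0.37, adjusted p = 0.967 from limma) was -0.10 with quantile normalization, -0.030 with median centring and -0.070 without aged rat 6, so it had no settled sign.

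The 2 co-receptors of Tlr4 went in opposite directions, neither past the test. Cd14, which hands lipopolysaccharide to the receptor, ranged from 36.2 to 93.6 (median 61.7) in aged rats and from 32.5 to 58.8 (median 44.1) in young rats. Aged rats 1, 4 and 6 exceeded every young rat, aged rats 2 and 5 exceeded every young rat but rat 6, and aged rat 3, at 36.2, lay below all young rats except rat 1. Its mean was 63.2 ± 18.6 in aged and 45.3 ± 10.5 in young rats (SD, n = 6 each). Its log2 difference of 0.46 (standard error 0.21, interval -0.0091 to 0.93, unadjusted p = 0.0539, adjusted p = 0.556 from limma) was the largest of the 9 genes. It was 0.33 without aged rat 6 and 0.61 without aged rat 3, and 0.54 within the lower and 0.52 within the higher code series. The higher series holds 2 aged rats, rat 6 at 93.6 and rat 5 at 57.9. Rat 5 lies within the range of the young rats of that series, 41.4 to 58.8.

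Ly96, the small protein that binds lipopolysaccharide beside Tlr4, ranged from 111 to 159 (median 124) in aged rats and from 114 to 174 (median 129) in young rats. The highest value belonged to young rat 2 and the next highest to aged rat 6. Aged minus young was -0.067 in log2 (standard error 0.11, interval -0.32 to 0.18, adjusted p = 0.906 from limma). It changed sign to 0.012 without young rat 2 and was 0.22 within the higher against -0.25 within the lower code series (interaction unadjusted p = 0.0435, adjusted p = 0.999 from limma).

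Myd88, the adaptor shared by these receptors, ranged from 158 to 238 (median 197) in aged rats and from 140 to 187 (median 175) in young rats. Aged rats 2, 3, 5 and 6 exceeded every young rat, while aged rat 1 was lower than 5 of the 6 young rats. The mean was 202 ± 30.8 in aged and 171 ± 17.9 in young rats (SD, n = 6 each). This gave 0.23 in log2 (standard error 0.11, interval -0.0084 to 0.47, unadjusted p = 0.0572, adjusted p = 0.556 from limma). It stayed above 0 in each of the 27 alternatives tried, from 0.11 to 0.35, as did the differences of Cd14 and Nfkbia. Several alternatives change only the filter or the test, so the difference there was the same 0.23 by construction.

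**Figure D2:**
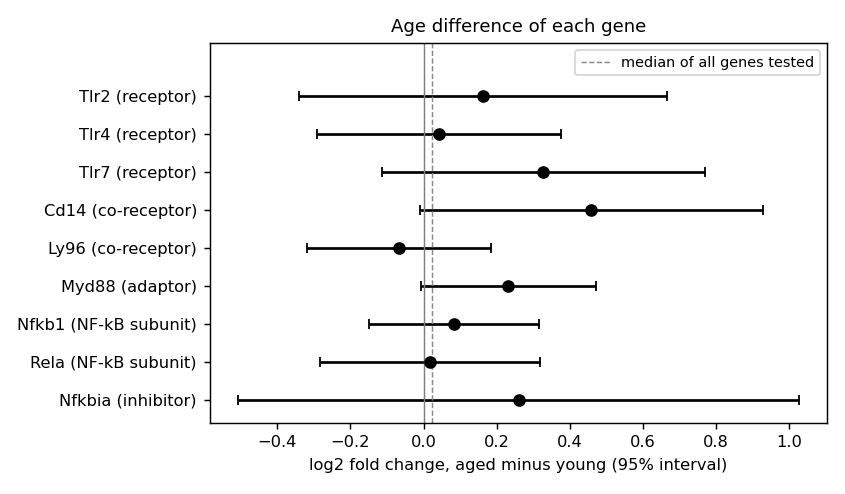
The log2 fold change (x axis, aged minus young) of each of the 9 genes (y axis), with 95% intervals from limma over 12 rats. Every interval includes 0, those of Cd14 and Myd88 narrowly, and the dashed line is the median of all genes tested at 0.024.

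The NF-kB subunits differed little in their means. Nfkb1, which encodes the p105 precursor of the p50 subunit, ranged from 383 to 492 (median 433) in aged rats and from 332 to 529 (median 402) in young rats. The young rats spanned the aged range at both ends. Aged minus young was 0.082 in log2 (standard error 0.11, interval -0.15 to 0.31, adjusted p = 0.871 from limma), and it was -0.060 within the lower code series.

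Rela, which encodes the transactivating p65 subunit, ranged from 211 to 375 (median 302) in aged rats and from 258 to 378 (median 274) in young rats. Young rat 6 alone had 378, against 258 to 280 in the other young rats. Its log2 difference was 0.018 (standard error 0.14, interval -0.28 to 0.32, adjusted p = 0.981 from limma). It was -0.024 with quantile normalization, -0.053 with median centring and 0.11 without aged rat 2, so its sign was not settled.

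Nfkbia, the inhibitor that NF-kB itself induces, varied the most between rats of the same age. Its signal ranged from 257 to 733 (median 355) in aged rats and from 162 to 636 (median 325) in young rats. The SD was 46.3% of the mean in aged and 45.2% in young rats, against 9.80% to 33.8% and 10.4% to 25.8% for the other 8 genes. Aged rats 1 and 2 and young rat 2 had the 3 highest signals, and all 3 belong to the lower code series, whose 7 rats ranged from 257 to 733. The 5 rats of the higher series ranged from 162 to 319. The log2 fold change was 0.26 (standard error 0.35, interval -0.51 to 1.03, adjusted p = 0.876 from limma), and it was 0.017 within the lower and 0.28 within the higher series, and 0.052 without young rat 5. What the code series stand for is not given in the labels, and their part in this spread was not tested.

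Promoters were searched for the NF-kB consensus site, a sequence of 10 bases, and sites are shown because Nfkbia and Tlr2 are themselves targets of the pathway. In the 250 bases before the start site of RefSeq's table (rat build GRCr8), both strands were searched. The 9 genes with a window, Tlr3 among them and Ly96 not, included 2 with a match, Tlr2 and Nfkbia, or 22.2%. Of all 27457 genes with a window 3.82% had one, and of all 33469 windows 3.54%. Among the other pathway genes listed further on, 17 of 78 with a window (21.8%) had a match. The 30 bases around the site are given 5′ to 3′ on the strand of the gene, with the matching bases in capitals, for the 2 genes and for those pathway genes named in the text that had a match. In Tlr2 and Cxcl2 the capitals cover 2 overlapping matches, and in Tnfaip3 they mark 2 of its 3 matches.
Tlr2 (chr2:171504744-171504773, minus strand): caggcccttgGGGGAATTCCCatacggagc
Nfkbia (chr6:78597084-78597113, minus strand): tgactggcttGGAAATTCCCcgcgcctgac
Tnfaip3 (chr1:15544021-15544050, minus strand): gactGGAAAGTCCCtcGGAAATCCCCctgt
Bcl3 (chr1:88613574-88613603, minus strand): tcggcggcagGGGAAGTCCCgcagcccggc
Irak3 (chr7:57598646-57598675, minus strand): aggtctcgcaGGGGCATCCCtggggagagg
Irf1 (chr10:38417860-38417889, plus strand): agttcgggccGGGGAATCCCgctaagtgtt
Cxcl2 (chr14:17467310-17467339, minus strand): cctaagctcaGGGGATTTCCCtgatccctg
Cxcl10 (chr14:15988869-15988898, plus strand): gcaggaaagaGGGAAATTCCaagctcatgg
A match is a run of letters and not a measured binding site. The match of Nfkbia began 31 bases before the start and that of Tlr2 206 bases before it.

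The rest of the pathway was read from 7 lists of 105 genes, of which 91 had a probe set and 85 were tested. None passed at an adjusted p under 0.05 (limma). An unadjusted p up to 0.05 was found for 9 of them, or 10.6% of the 85, each above 0, against 9.11% of all genes (6.49% higher and 2.62% lower). S100a8, Il1b and Cxcl2 among these 9 passed the detection filter only or mainly through the aged rats, and Cxcl10 was below the cutoff in 2 young rats, so their direction is not independent of the filter. Among the 56 pathway genes above the cutoff on all 12 arrays 5 had such a p, or 8.93%, against 9.12% of all genes above it on all arrays, a share near the background. Direction depended on the scaling over the whole array. All genes at such a p split into 860 higher and 347 lower as deposited, 586 and 470 with quantile normalization, and 413 and 884 with median centring, and the pathway genes into 9 and 0, 9 and 1, and 8 and 2. By sign alone, 61 pathway genes lay above 0 and 24 below, or 71.8% above against 56.9% of all genes, and the median was 0.10 in log2. With quantile normalization 53 lay above and 32 below, or 62.4% above against 50.8% of all genes, and with median centring 46 and 39, or 54.1% against 37.8%. As deposited, 38 of the 56 pathway genes above the cutoff on all 12 arrays lay above 0, or 67.9%, against 55.6% of all such genes. The tested pathway genes with a promoter match were higher in 12 of 14 cases (median 0.23), and those without in 30 of 48 (median 0.057), both as deposited. Of all genes 56.9% were higher. The 12 include Il6 and Lcn2, which averaged below the cutoff at both ages. They also include Cxcl2, above it in 3 aged rats and 1 young rat, and Irak3, in 5 and 3. This contrast between genes with and without a match is a description and was not tested.

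Among 7 ligands, 2 genes stood apart, S100a8 and S100a9, the paired calcium-binding proteins of neutrophils and monocytes that activate Tlr4. S100a9 ranged from 83.3 to 241 (median 142) in aged and from 25.0 to 71.3 (median 48.9) in young rats, and the lowest aged rat exceeded the highest young rat. Its log2 fold change was 1.60 (standard error 0.29, adjusted p = 0.105 from limma), and with an intensity trend and robust variances the adjusted p was 0.0401. S100a8 ranged from 25.3 to 75.6 in aged rats and stayed below the cutoff in every young rat (2.57 to 18.8). Against the cutoff it was at least 2.23-fold higher in aged rats (adjusted p = 0.189 from limma, computed on the signals as measured). It entered the test through the aged rats alone. Both genes are also markers of blood leukocytes, and the 6 tested leukocyte markers, these 2 among them, summed to 195 to 438 in aged and 117 to 225 in young rats. The other 4 tested markers (Cd3e, Cd3g, Nkg7 and Gzma) summed to 64.0 to 161 in aged and 70.1 to 171 in young rats, which overlap. Aged and young means were 23.5 and 30.2 for the T cell gene Cd3e, 35.9 and 35.1 for Cd3g, 17.2 and 16.6 for Nkg7, and 30.1 and 18.9 for the cytotoxic cell protease Gzma. Ccr2, Cd3d, Cd79b and Camp averaged below the cutoff at both ages. The part of blood cells in these ligand signals was not tested. Hspd1, a mitochondrial chaperone also described as a ligand, averaged 4871 ± 253 in aged and 5176 ± 327 in young rats (SD, n = 6 each).

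**Figure D3:**
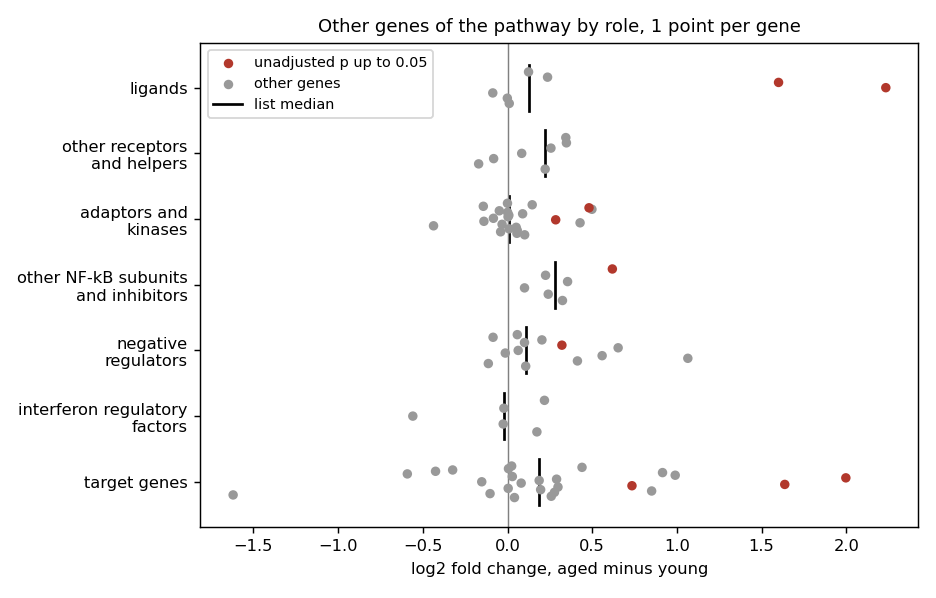
The log2 fold change (x axis, aged minus young) of 85 other pathway genes in 7 lists (y axis), each gene as a point and each list median as a black line. The 9 genes at an unadjusted p up to 0.05, in red, all lie above 0 as deposited, while no gene passed at an adjusted p under 0.05. The 3 of them at the right beside S100a9 (S100a8, Il1b and Cxcl2) were below the detection cutoff in 5 or 6 young rats. Their direction is not independent of the filter.

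Of 7 other receptors and their helpers, 5 were above 0 and 2 below, or 71.4% above against 56.9% of all genes. None had an unadjusted p up to 0.05. Unc93b1, which carries Tlr7 to endosomes, averaged 289 ± 87.7 in aged and 222 ± 27.3 in young rats (SD, n = 6 each), or 0.34 in log2 (adjusted p = 0.570 from limma), and 0.21 without aged rat 6, the highest at 451. Cnpy3, a chaperone of the receptors, had -0.17. Tlr8, like Tlr7 a receptor of RNA, had 0.35, with 5 aged and 5 young rats above the cutoff.

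The 22 adaptors and kinases between receptor and NF-kB had a median of 0.0085, with 14 above 0 and 8 below. That is 63.6% above, against 56.9% of all genes. Tirap, the bridge between Myd88 and the receptors Tlr2 and Tlr4, had the smallest p. It ranged from 72.8 to 109 (median 88.8) in aged and from 46.4 to 89.8 (median 65.9) in young rats. Young rats 1, 3 and 5 lay within the aged range. This was a log2 fold change of 0.48 (standard error 0.16, unadjusted p = 0.0119, adjusted p = 0.403 from limma). Peli2, a ubiquitin ligase acting on the Irak kinases, had 0.28 (adjusted p = 0.498 from limma), and Traf6, the ubiquitin ligase that follows them, 0.15 (adjusted p = 0.588 from limma). With median centring, 7 of this list were above 0 and 15 below, or 31.8% above, against 37.8% of all genes.

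All 6 other subunits and inhibitors of NF-kB that were tested lay above 0 (median 0.28), also with quantile normalization and with median centring. Relb, the subunit of the noncanonical pathway, ranged from 71.4 to 101 (median 87.1) in aged and from 35.2 to 69.8 (median 61.3) in young rats. The 2 age groups thus did not overlap, though the lowest aged rat, at 71.4, was close to the highest young rat, at 69.8. Its log2 fold change was 0.62 (standard error 0.16, unadjusted p = 0.00289, adjusted p = 0.292 from limma). Nfkbib, a close relative of Nfkbia, had 0.10 and Bcl3, an IkB protein of the nucleus, 0.32, neither at an unadjusted p up to 0.05. With the mean of its probe sets Bcl3 had -0.056.

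Of 13 negative regulators 10 were above 0, or 76.9% against 56.9% of all genes. With quantile normalization and with median centring 8 were above 0 and 5 below, against 50.8% and 37.8% of all genes above 0. Tnfaip3, the A20 enzyme that NF-kB induces and that ends its activation, ranged from 284 to 389 (median 319) in aged and from 225 to 313 (median 256) in young rats. Young rats 2 and 3 lay within the aged range. Its log2 difference was 0.32 (standard error 0.11, unadjusted p = 0.0112, adjusted p = 0.396 from limma). Irak3, which blocks the release of Irak kinases from the receptor, had 1.06 with a standard error of 0.57, and 5 aged and 3 young rats were above the cutoff. Tnip2, a partner of A20, had 0.20. Among 5 interferon regulatory factors 2 were above 0, or 40% against 56.9% of all genes, and none had an unadjusted p up to 0.05. Irf5, which acts downstream of Myd88, had -0.56, with aged rat 2 at 11.7 while the other aged rats had 64.9 to 158, and the difference was -0.057 without that rat. Irf1 had 0.17 and Irf8, a factor of the myeloid lineage, 0.22.

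Of 25 target genes tested, 19 were above 0 and 6 below, or 76% above against 56.9% of all genes. With quantile normalization 16 were above and 9 below, and with median centring 14 and 11. That is 64% and 56% above, against 50.8% and 37.8% of all genes. An unadjusted p up to 0.05 was found for 3, of which Il1b and Cxcl2 passed the detection filter mainly through the aged rats. Il6, Lcn2, Tnf, Sele and Ccl2 averaged below the cutoff at both ages. Il1b, the cytokine interleukin-1 beta, ranged from 27.1 to 41.3 (median 34.9) in aged and from 2.65 to 28.9 (median 8.39) in young rats. All 6 aged rats but only 1 young rat exceeded the cutoff. Its log2 fold change on the measured values was 2.00 (standard error 0.51, adjusted p = 0.258 from limma). Cxcl10, a chemokine of the interferon response, ranged from 22.3 to 53.1 (median 35.6) in aged and from 15.2 to 31.4 (median 22.4) in young rats, a log2 fold change of 0.73 (adjusted p = 0.411 from limma). Cxcl2, a neutrophil chemokine, exceeded the cutoff in 3 aged rats and 1 young rat.

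The 9 genes were then set against the level of microglia in each rat. That level was the mean log2 signal of 13 marker genes, and the deviations of the 12 rats from their age group mean were correlated. Of the 9 relations none passed after Benjamini-Hochberg adjustment. Ly96 was nearest (Pearson's r = 0.70, permutation p = 0.0100, adjusted 0.0900, and Spearman's rho = 0.57, permutation p = 0.0598, adjusted 0.417). Tlr2 followed with r = 0.64 (permutation p = 0.0322, adjusted 0.145) and rho = 0.40 (permutation p = 0.200, adjusted 0.600). Tlr4 and Tlr7 had r = 0.54 and r = 0.53, Cd14 and Myd88 both 0.46, Rela 0.18, Nfkb1 0.13 and Nfkbia -0.41, with adjusted permutation p-values of 0.191 to 0.671. Without aged rats 6 and 1, which deviated most in their markers, r was -0.061 for Tlr2, -0.31 for Tlr4, -0.38 for Tlr7, -0.23 for Myd88 and 0.20 for Cd14, so these relations rested on those rats. For Ly96 it was 0.69 (permutation p = 0.0283, adjusted 0.255). Without aged rat 6 and young rat 1, which had the most extreme marker levels, r was instead 0.38 for Ly96, 0.25 for Tlr2, 0.089 for Tlr4, -0.40 for Cd14 and 0.69 for Tlr7 (permutation p = 0.0287, adjusted 0.258 for Tlr7). No relation held under both omissions. Among the 6 aged rats alone Tlr7 had r = 0.97 (exact permutation p = 0.00556, adjusted 0.05, which is not under the threshold) and among the 6 young rats alone -0.57 (exact permutation p = 0.233, adjusted 0.844). By rank these relations were weaker, with Spearman's rho = 0.83 in aged rats (exact permutation p = 0.0583, adjusted 0.525) and 0.029 in young rats.

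**Figure D4:**
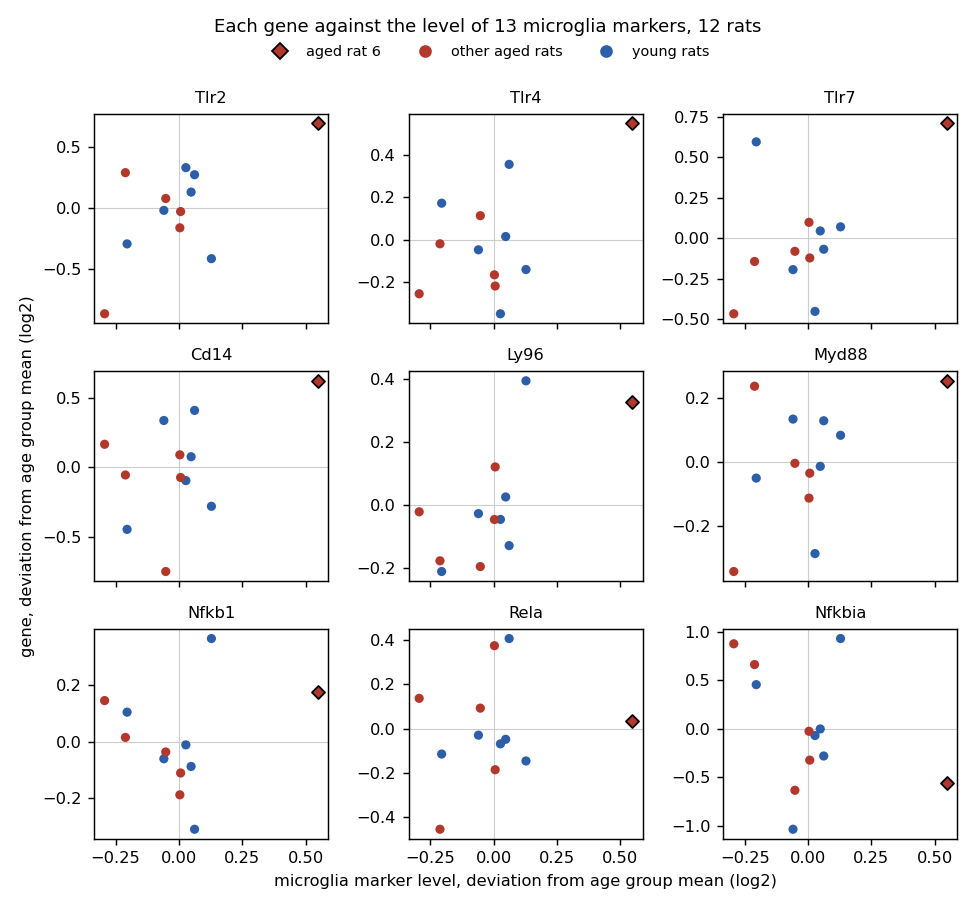
Deviation of each gene from its age group mean (y axis, log2) against that of the mean of 13 microglia markers (x axis, log2), with 1 point for each of 12 rats. Aged rat 6 lies 0.55 above the aged mean of the markers, far to the right of the other 11 rats, and is the highest of the 12 rats in deviation for the 3 receptors, Cd14 and Myd88.

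The gene most like each of the 9, by the correlation of deviations from the age group means over the 12 rats among 13252 other genes, was Ddit4, an inhibitor of mTOR signalling, for Nfkbia (r = 0.94, rho = 0.90). It was Gpx7, of the glutathione peroxidase family, for Tlr2 (r = 0.93), Mdk, a heparin-binding growth factor, for Tlr7 (r = 0.91), and Mvb12b, of the endosomal sorting machinery, for Ly96 (r = 0.95). Arrdc1 for Tlr4, Phactr4 for Cd14, Lhpp for Myd88, Il10rb for Nfkb1 and Hnmt for Rela had r of 0.88 to 0.91. As each is the highest of 13252 correlations over 12 rats that share their arrays, no p is given.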

How the data were processed

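Values deposited by the authors are linear signal intensities, 1 for each probe set on each array. Per the submitters' notes the tools were MAS5, GCRMA and R 2.7.1, the methods name gcRMA and a scaling to a target intensity of 500, and which step gave the deposited intensities is not given in the sources used here. Their log2 was taken without further normalization. Symbols came from the platform annotation (20832 probe sets with 1 symbol, 436 with several, 9831 with none), updated by gene ID for 20764. Where a gene had several probe sets the one highest on average was used. Genes above 4.3 (log2, the cutoff the methods applied to gcRMA signals) on at least 3 arrays were tested. The test was limma 3.58.1 in R 4.3.3, two-sided, in place of the methods' t-test. Correlations used 100000 permutations, or all of them within 6 rats (Python 3.11.15). Only the limma fit was tested on simulated data, with known shifts added to independent normal values and no array-wide shift. The other steps were not tested in this way. The 9 measured genes are all named, with the 3 smallest p-values of each pathway list and the gene most like each. Members and lists were chosen with earlier results of these data known. Replicates are separate rats. Promoter windows and coordinates are RefSeq's, build GRCr8. Alternatives were quantile normalization, median centring, 2 other filters, other uses of probe sets, variance models, array weights, the methods' t-test, blocks for subject number and code series, fits within either series and leaving out each rat. The interaction of age with code series, the omission of aged rats 2 and 6 together, and that of the 2 rats with the largest marker deviations, were added after the data were seen.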

Additional observations from a re-analysis of the deposited data

Results flagged for a closer look

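Of 60 groups of 6 rats examined (9 genes and 21 named pathway genes at 2 ages), 2 held a rat whose distance to its nearest neighbour took an unusually large share of the range on the log2 scale, where chance marks about 1 in 20 groups. Young rat 6 had a Rela signal of 378, against 258 to 280 in the other young rats. Aged rat 2 had an Irf5 signal of 11.7, below the detection cutoff, against 64.9 to 158 in the other aged rats.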

How the results depend on the processing

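No gene of the 9 passed an adjusted p of 0.05 in any of the 26 alternatives, and adjusted p-values ranged from 0.373 to 0.999. At an unadjusted p up to 0.05 the count was 0, and it was 1 when genes had to exceed the cutoff on all 12 arrays (Cd14), 1 with the code series as a block (Cd14), 1 within the higher series (Tlr7) and 2 with the subject number as a replicate block (Cd14 and Myd88). With 1 rat left out it ranged from 0 to 1, and was 1 without aged rat 1 (Myd88), aged rat 3 (Cd14), young rat 1 (Tlr7), young rat 5 (Cd14) or young rat 6 (Cd14). No label says that a subject number pairs rats. For want of such a label the rats were not treated as pairs. The correlation of deviations between the aged and young rat of a number was -0.040 to 0.16, above 0.1 for 4 of 6 numbers. These correlations do not settle whether rats of a number are alike. The median log2 fold change was 0.047 to 0.20 with 1 rat left out and 0.017 to 0.28 otherwise, against 0.16.

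Signs changed for small differences. With quantile normalization Rela had -0.024 and Tlr4 -0.10, with median centring -0.053 and -0.030, and with array weights Tlr4 had -0.020. Within the lower series Nfkb1 had -0.060, Tlr4 -0.057 and Tlr7 -0.057, and within the higher series Ly96 had 0.22, Rela -0.16 and Irf5 0.32. With 1 rat left out Rela ranged from -0.057 to 0.11, Tlr4 from -0.070 to 0.11 and Ly96 from -0.13 to 0.012. Without aged rats 2 and 6 Tlr2 had -0.083, Tlr4 -0.092 and Irf1 -0.052. Bcl3 had -0.056 with the mean of its probe sets. The causes were not tested. For the correlation with microglia markers, Cd14 had -0.40 and Nfkb1 -0.20 without the 2 rats farthest from the median level, and in young rats alone Tlr4 had -0.26, Tlr7 -0.57 and Nfkbia 0.17. Without the 2 rats of largest marker deviation, Tlr2 had -0.061, Tlr4 -0.31, Tlr7 -0.38, Myd88 -0.23 and Nfkb1 -0.11. No correlation passed after adjustment in any setting.

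Of the 85 pathway genes 0 passed, and 1, S100a9, with an intensity trend and robust variances. At an unadjusted p up to 0.05 the count was 9, and 5 when genes had to exceed the cutoff on all 12 arrays, which leaves fewer genes tested, and between 6 and 13 otherwise, with 12 from array weights and 13 with the subject number as a replicate block. With 1 rat left out it was 8 to 12.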
